A study of Rattus norvegicus with 36 samples.

Results

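The 267 genes described here were higher after culture of rat lung slices, moved little with TGFb, and were lower when Pirf was given with TGFb. They were chosen on group means of deposited log2 CPM, the count of a gene scaled to a common library size, 6 libraries a group. A gene was taken where its highest group mean was at least 1, untreated slices at 72 exceeded slices at 0 by at least 1, TGFb moved it by less than 0.5, and Pirf with TGFb lay at least 1 below TGFb alone. Of 14984 genes in the coding table, 13053 reached that level, 2104 of them were higher at 72, 1611 of those were little moved by TGFb, and 267 (16.6% of the 1611) were also lower with Pirf. The 1344 genes that met every condition except the last serve below as the comparison set. Of the 659 coding genes of that level that lay at least 1 below TGFb with Pirf, the 267 make up 40.5%.

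The study profiled total RNA of precision-cut rat lung slices in 36 libraries. The 6 groups were untreated slices at time 0 (None_0_None), untreated slices at 72 (None_72_None), slices with TGFb at 72 (TGFb_72_None), and slices at 72 given TGFb with Pirf, Nint or Sora (TGFb_72_Pirf, TGFb_72_Nint, TGFb_72_Sora). Every drug group also received TGFb, so no group shows a drug without it. Pirf, Nint and Sora are read as pirfenidone, nintedanib and sorafenib; the labels state no dose and no unit for the times. Separate animals are not stated for the replicates, so a p-value here reflects the spread among these libraries, possibly a technical one.

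Precision-cut slices keep the cell types of the lung together in their matrix, but cutting and explanting the tissue start an injury and adaptation response that unfolds during culture. TGFb is the central pro-fibrotic cytokine and drives myofibroblast and matrix programmes through SMAD signalling. Pirfenidone is an anti-fibrotic and anti-inflammatory drug without a single agreed target, nintedanib inhibits the VEGF, FGF and PDGF receptor kinases, and sorafenib inhibits RAF kinases together with VEGF and PDGF receptors.

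The files list genes by Ensembl identifier and pair none with a name, and 0 of the 267 matched the reference table used here. Genes are therefore given as groups and by a few identifiers, without function or sequence, and the labelled tissue was not checked against marker genes. Total counts ran from 15886958 to 23255558 per library at time 0 and from 18971560 to 32933012 at 72. Replicate 3 at time 0 stood apart for these genes: it was the highest time 0 library for 182 of the 267 (68.2%), against 27.7% of coding genes and 52.2% of the comparison set. In bulk RNA, fewer cells of a type and less RNA per cell cannot be told apart.

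Averaged over the 267 genes, the level was low at time 0, high in 4 of the 5 groups at 72, and intermediate with Pirf. The mean log2 CPM was 1.96 ± 0.382 (SD, n = 6) at time 0, 4.61 ± 0.0861 in untreated slices at 72 and 4.73 ± 0.132 with TGFb. With Pirf it was 3.32 ± 0.128, with libraries from 3.11 to 3.44, between the highest time 0 library at 2.72 and the lowest library of any other group at 72, at 4.37. With Nint it was 4.67 ± 0.0778 and with Sora 4.46 ± 0.0871. These genes took 0.577% ± 0.147 of all counts at time 0, 2.22% ± 0.309 in untreated slices at 72, 2.39% ± 0.359 with TGFb, 0.967% ± 0.0496 with Pirf, 2.42% ± 0.19 with Nint and 1.91% ± 0.207 with Sora (SD, n = 6 each). The comparison set had mean log2 CPM of 2.93 at time 0, 4.56 with TGFb and 4.33 with Pirf. The rule's differences used the time 0, untreated, TGFb and Pirf libraries. The values of those groups are therefore a description and were not tested. Nint and Sora entered only the level condition, on the highest group mean.

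**Figure D1:**
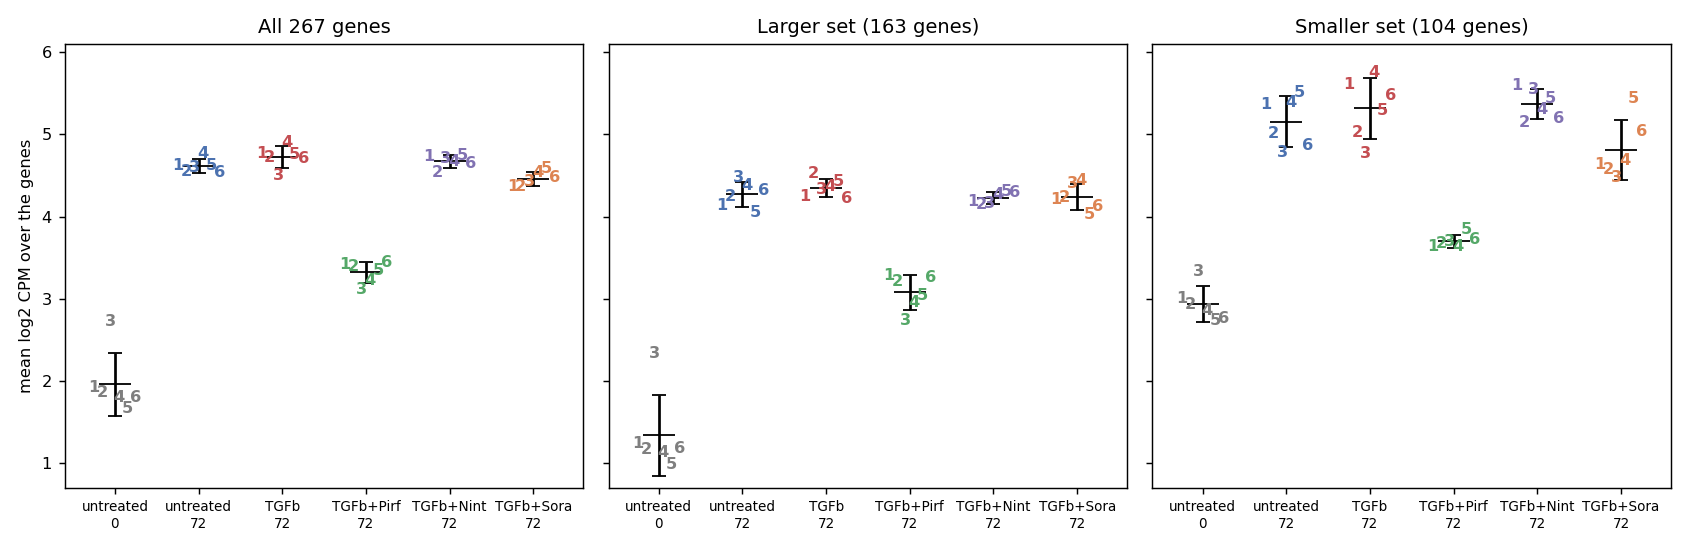
Mean log2 CPM over the genes (y axis) in each library, numbered by replicate, for all 267 genes and for the larger and smaller sets described below, with horizontal bars for group means and vertical bars for SD (n = 6). Pirf libraries lie between time 0 and the other groups at 72, and Sora lies below Nint in the smaller set.

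The difference between untreated slices at 72 and at 0 had a median of 2.58 log2 CPM and ran from 1.003 to 6.82. It was at least 3 for 94 genes. All 6 untreated libraries at 72 lay above all 6 at time 0 for 246 of the 267, beside 27.9% of all coding genes, a count the rule largely set. Without replicate 3 at time 0 the median was 2.70, and 264 genes still differed by at least 1.

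ENSRNOG00000006926 had the largest such difference, 6.82. Its log2 CPM at time 0 had a lowest value of -2.32, a median of -1.49 and a highest of 2.16, and in untreated slices at 72 these were 5.10, 5.69 and 6.37. The groups did not overlap, and replicate 3 was the high time 0 library. ENSRNOG00000011923 followed with 6.77: its time 0 libraries had a lowest value of -6.60, a median of -2.98 and a highest of 0.81, against 3.35, 3.81 and 4.23 in untreated slices at 72. Its lowest time 0 library held a count of 0, so the size of this difference depends on the small constant added before the logarithm.

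TGFb without a drug moved the 267 genes by a median of 0.12, from -0.46 to 0.49, and the mean was higher than in untreated slices at 72 for 193. All 6 TGFb libraries lay above all 6 untreated ones for 4 genes and below for 2, beside 6.6% and 7.11% of coding genes. The rule limited these values to under 0.5 in size.

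With Pirf the 267 genes lay a median of 1.26 log2 units under TGFb alone; the differences ran from -4.02 to -1.0, with quartiles of -1.49 and -1.12. A difference of -2 or below was seen in 25 genes. All 6 Pirf libraries lay below all 6 TGFb libraries for 245 of the 267 (91.8%), beside 16.1% of coding genes, again a count that the rule largely set. The Pirf mean was the lowest of the 5 groups at 72 for 263 genes. Without scaling factors the median over all coding genes moved from 0.02 to 0.16 and the median over the 267 from -1.26 to -1.11; 192 of them then still reached -1.

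ENSRNOG00000046683 showed the largest difference with Pirf, -4.02. Its lowest, median and highest log2 CPM were 1.02, 1.41 and 1.61 with TGFb and -3.36, -2.54 and -2.06 with Pirf. The groups lay far apart, and the Pirf libraries also lay under every time 0 library of this gene, which ran from -1.77 to 0.10. Its counts were low, 2 to 8 with Pirf, 6 to 22 at time 0 and 41 to 80 with TGFb. The size of these differences therefore rests on few reads. ENSRNOG00000006926 came next with -3.71: TGFb libraries had 4.98, 5.82 and 6.73, and Pirf libraries 1.80, 2.15 and 2.42. Here Pirf stayed above the time 0 median of -1.49, with the high time 0 library at 2.16 inside the Pirf range.

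For most of the 267 genes the level with Pirf remained above that at time 0. The Pirf mean exceeded the time 0 mean by a median of 1.35, by more than 1 for 170 genes, and it was below the time 0 mean for 29. All 6 Pirf libraries lay above all 6 at time 0 for 169 genes (63.3%), beside 31.4% of coding genes, and below for 4, beside 24.7%. In the comparison set they lay above for 1213 of 1344 genes and below for 0. The rule's culture condition favours genes above time 0, so these counts were largely set by it. The difference with Pirf amounted to a median of 51.5% of the difference with culture, with quartiles of 37.6% and 73.6%. Without replicate 3 at time 0 the median excess over time 0 was 1.503 and 30 genes lay below.

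The size of the Pirf difference did not follow the size of the culture difference. In 4 classes of 66 or 67 genes ordered from the smallest culture difference to the largest, the median Pirf difference was -1.34, -1.20, -1.24 and -1.26. Across the 267 genes Pearson's r between both differences was -0.007 and Spearman's rho 0.026. These are a description, because the rule cut both differences at a threshold. The Pirf difference therefore made up 90.9% of the culture difference in the first class and 33.9% in the last, as medians. Of the 29 genes under their time 0 mean, 25 were in the first class and 4 in the second. With every Pirf difference at -1 or below by rule, these shares and counts by class largely follow from the thresholds.

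**Figure D2:**
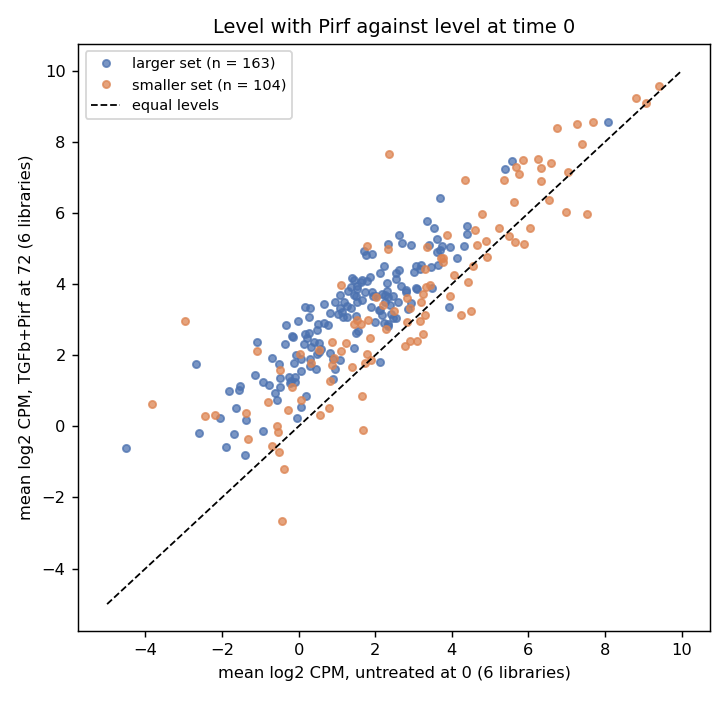
Mean log2 CPM with Pirf and TGFb at 72 (y axis) against mean log2 CPM at time 0 (x axis), 1 point per gene, means of 6 libraries, with a dashed line at equal levels. Most points lie above the line, and 29 of 267 lie below it, 27 of them in the smaller set.

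The 267 genes did not vary as 1 block between replicates. Deviations from the group means were taken in the 18 libraries of untreated slices at 72, TGFb and Pirf, and the sign of each gene's loading on their first component split the genes into a larger set of 163 and a smaller set of 104. That component held 39.0% of the variance of these deviations, against 30.5% in the comparison set and 31.1% over coding genes. Of the 267 genes, 31 had a loading under 0.2 in size and 178 one over 0.5, so the split is a range with a filled middle. With all 30 libraries at 72, 250 genes (93.6%) stayed on the same side. Those 30 include the 18 that made the split, so much of this agreement was set in advance. The split was made after the data were seen.

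In the 12 Nint and Sora libraries, which were not used to make the split, the median correlation between pairs of genes, over deviations from group means, was 0.652 within the larger set, 0.47 within the smaller set and -0.347 between them. The comparison set, split by the same rule into 807 and 537 genes, had 0.312, 0.176 and -0.179, so it showed such a division too, with values nearer to 0. These are descriptions over 12 libraries that share depth and scaling. Replicate 5 of the Sora group was the lowest Sora library for 114 of the 163 genes of the larger set. It was the highest for 76 of the 104 genes of the smaller set. Over coding genes this library was the lowest for 25.7% and the highest for 24.0%. Each share was larger than that of any other Sora library, so its extreme position was not limited to these sets.

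The sets also differed in level and in the differences the rule used. The larger set had a median time 0 mean of 1.44, a median culture difference of 2.98 and a median Pirf difference of -1.20, with 4 genes at or below -2 and 2 under their time 0 level. The smaller set started from a median of 2.90, with a culture difference of 1.91 and a Pirf difference of -1.40, with 21 genes at or below -2 and 27 under their time 0 level. By library, the smaller set's mean log2 CPM spread over 4.77 to 5.76 with TGFb, with replicate 3 lowest and replicate 4 highest, and over 3.64 to 3.84 with Pirf. The larger set was tighter with TGFb, at 4.22 to 4.52, and wider with Pirf, at 2.74 to 3.28, with replicate 3 lowest. Replicate order and spread in these libraries partly follow from the split, which was made from their deviations.

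**Figure D3:**
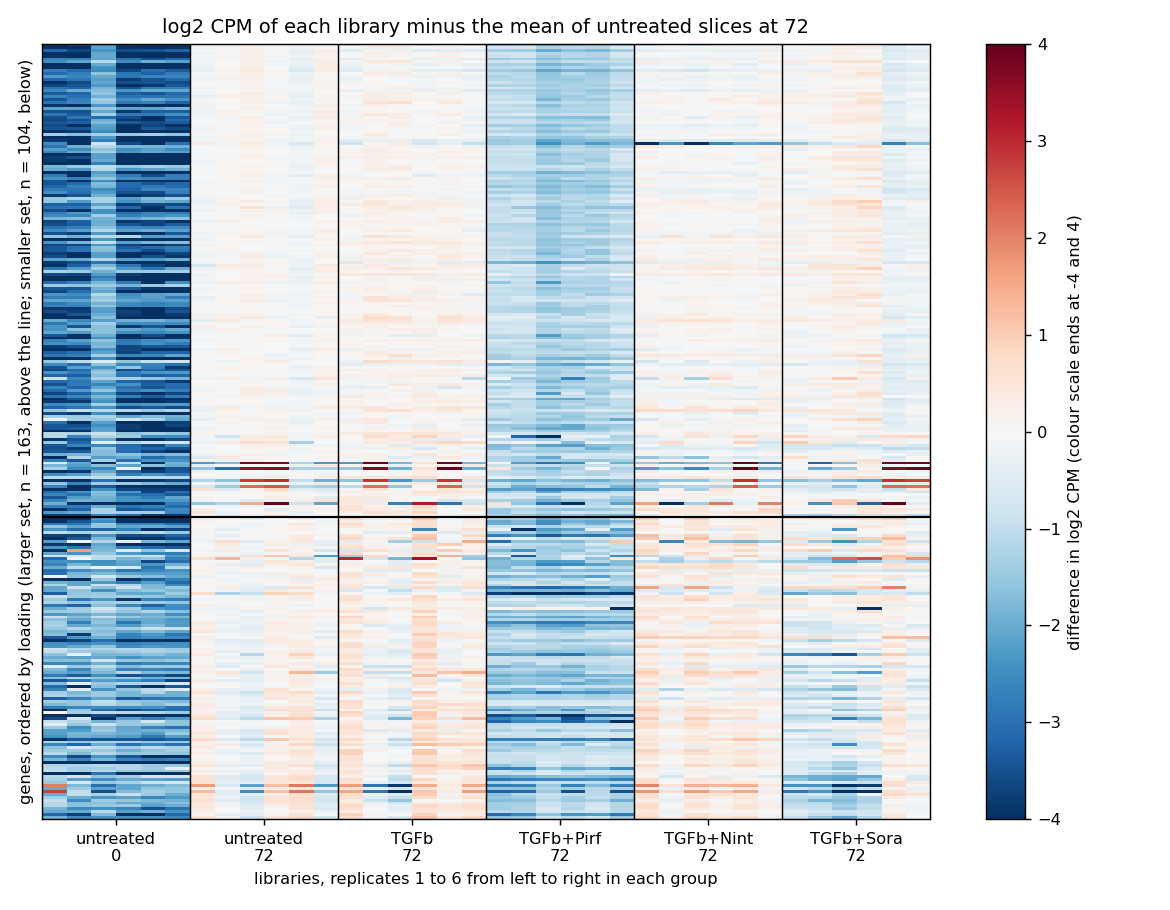
Log2 CPM of each library minus the mean of untreated slices at 72 (colour, scale ends at -4 and 4), 1 row per gene ordered by loading and 1 column per library, with the larger set of 163 above the line and the smaller set of 104 below it. Time 0 and Pirf columns are lower throughout, time 0 replicate 3 is paler in the larger set, and Sora columns are lower than Nint columns mainly in the smaller set.

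Sora against Nint is the comparison whose 12 libraries entered none of the rule's differences. They entered only its level condition, a highest group mean of at least 1, which their means could also meet. With edgeR's quasi-likelihood test, fitted over 15644 genes and called at a Benjamini-Hochberg adjusted p under 0.05, 31 of the 267 genes fell with Sora relative to Nint (11.6%), beside 4.56% of all genes tested. In the other direction 2 rose (0.749%), beside 6.43% of all genes. The median log2 fold change was -0.11, against 0.02 over all genes, and 176 genes (65.9%) were negative, against 45.5%. In the comparison set 65 of 1344 genes fell (4.84%), 33 rose (2.46%), and the median was 0.00. The share of the 267 that fell exceeded the share of all genes in each of 19 alternative fits, by 1.84 to 3.66 times, but the count itself ran from 12 to 57 as single libraries were left out. It was 57 without Sora replicate 5, and between 12 and 19 without any 1 of Sora replicates 1 to 4 or Nint replicates 1, 3, 4 and 5.

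The genes that fell with Sora relative to Nint lay mostly in the smaller set. Of its 104 genes 27 fell (26%), 0 rose by edgeR, and the median log2 fold change was -0.44, while in the larger set 4 of 163 fell (2.45%), 2 rose and the median was -0.004. Over all genes tested 4.56% fell and 6.43% rose, so the larger set's share that fell was under that of all genes. The larger set had no stable direction: it had 1 lower, 3 higher and a median of 0.099 without scaling, and 3 lower, 4 higher and 0.061 without Sora replicate 5. Over the 19 alternatives the smaller set's median stayed between -0.54 and -0.36 and its count of lower genes between 11 and 54, with 11 without each of Sora replicates 2, 3 and 4 and 54 without Sora replicate 5, with 0 to 1 called higher. By library, the smaller set's mean log2 CPM was 5.37 ± 0.185 with Nint and 4.804 ± 0.365 with Sora (SD, n = 6). Sora replicate 5, at 5.44, lay inside the Nint range of 5.14 to 5.596, and the other 5 Sora libraries lay below it, from 4.47 to 5.03. For single genes the groups seldom separated: all 6 Sora libraries lay below all 6 Nint libraries for 10 of the 267, beside 2.14% of coding genes, and above for 0, beside 2.5%.

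Genes further down with Pirf were more often lower with Sora than with Nint. In the 89 genes with the largest Pirf difference 19 fell (21.3%), in the next 89 there were 8 (8.99%) and in the last 89 there were 4 (4.49%), with median log2 fold changes of -0.27, -0.08 and -0.01. Over all genes tested the share was 4.56%. Classes of 89 genes by level with TGFb, highest first, had 17, 7 and 7 that fell. By culture difference, largest first, they had 6, 11 and 14. The part of level and culture difference in the Pirf order was not tested. Across the 267 genes the Pirf difference and the Sora to Nint fold change, which come from separate libraries, had a Pearson's r of 0.352 and a Spearman's rho of 0.332. These are descriptions over genes, which are not independent replicates. The 31 genes that fell had a median culture difference of 2.14 and a median Pirf difference of -1.47, against 2.64 and -1.23 for the 234 that were not called.

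**Figure D4:**
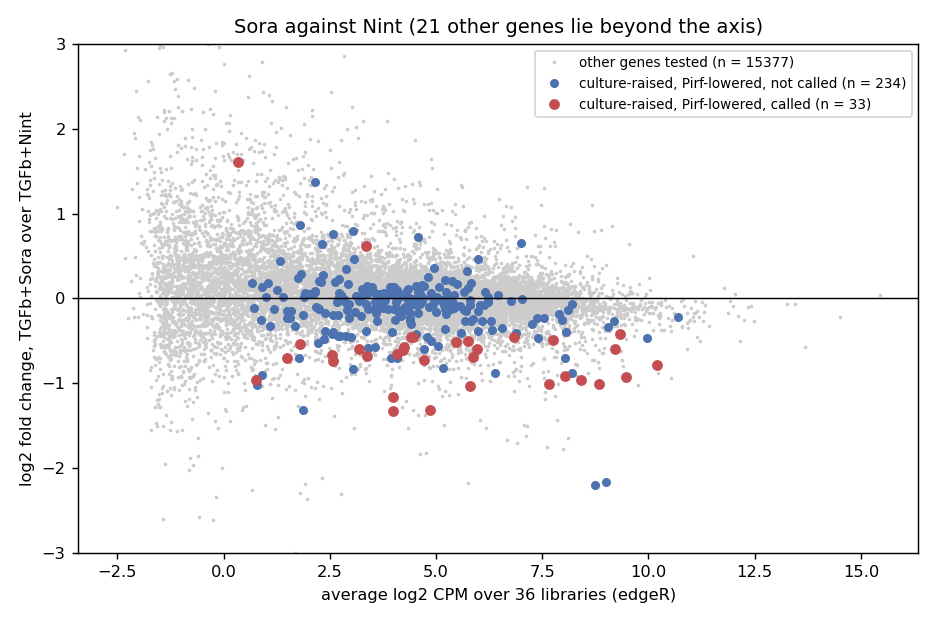
Log2 fold change of Sora over Nint, both with TGFb (y axis), against average log2 CPM over 36 libraries (x axis), 1 point per gene, with the 267 genes in colour, the 33 called ones in red, and 21 other genes beyond the axis. Of the red points 31 lie below the zero line and 2 above it.

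ENSRNOG00000038286, a gene of the smaller set, fell with Sora relative to Nint. Its lowest, median and highest log2 CPM were 5.17, 5.53 and 6.02 with Nint and 3.20, 3.73 and 5.55 with Sora. Only Sora replicate 5 reached into the Nint range. The edgeR log2 fold change was -1.32 ± 0.33 (SE), with an adjusted p of 0.00918. With Pirf this gene had 2.37, 2.60 and 2.83, below its time 0 range of 2.82 to 4.02 apart from a narrow overlap.

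ENSRNOG00000017386 had a similar fold change, -1.33 ± 0.41 (SE), with an edgeR adjusted p of 0.0357. Its Nint libraries had 4.25, 4.90 and 5.12 and its Sora libraries 1.88, 3.01 and 4.57, with overlap at the high Sora end. The call was lost in 8 fits that each left out 1 library, with adjusted p from 0.0532 to 0.0892. TGFb libraries of this gene already ran from 3.12 to 5.57, wider than the difference between the drugs.

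The 2 genes that rose with Sora relative to Nint were in the larger set. The loading was -0.812 for ENSRNOG00000004265, but -0.036, at the border of the sets, for ENSRNOG00000056697. ENSRNOG00000004265 had -3.16, -1.19 and -0.82 with Nint and -1.42, 0.04 and 0.80 with Sora, and edgeR gave a log2 fold change of 1.61 ± 0.45 (SE) at an adjusted p of 0.0209. Its counts were low, 3 to 14 with Nint and 11 to 57 with Sora. ENSRNOG00000056697 had 3.19, 3.48 and 3.86 with Nint and 3.64, 3.99 and 4.67 with Sora, and edgeR gave 0.62 ± 0.19 (SE) on the log2 scale at an adjusted p of 0.0312. In both, the groups overlapped; the first call was lost in 4 fits without 1 library (adjusted p 0.055 to 0.0599) and the second in 7 (0.0508 to 0.12).

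The comparisons of Nint and of Sora with TGFb alone share the TGFb libraries, which the rule also used, and a rule that asks for a large Pirf difference favours genes high in them. By edgeR 2 of the 267 genes fell with Nint (0.749%), beside 2.21% of all genes, and 0 rose, beside 0.882%. At an unadjusted edgeR p under 0.05 there were 10 lower and 2 higher, beside 1303 and 777 of all 15644 genes tested. DESeq2 called 3 lower and 0 higher, and limma 2 and 0. With Sora 45 fell (16.9%), beside 8.37%, and 0 rose, beside 7.01%. The 45 became 29 without TGFb replicate 1, 24 without TGFb replicate 4, 28 without Sora replicate 1 and 27 without Sora replicate 2. At an unadjusted edgeR p under 0.05 there were 80 lower and 3 higher with Sora, beside 2476 and 2269 of all 15644 genes tested. DESeq2 and limma each called 1 higher. The median log2 fold change was -0.07 with Nint and -0.19 with Sora, against -0.02 and 0.00 over all genes.

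ENSRNOG00000061910 fell with both kinase inhibitors. Its lowest, median and highest log2 CPM were 6.05, 6.403 and 6.67 with TGFb, 5.07, 5.43 and 5.74 with Nint, 4.23, 4.98 and 5.56 with Sora and 4.13, 4.66 and 5.28 with Pirf. Neither the Nint nor the Sora libraries overlapped those with TGFb alone. The edgeR log2 fold change was -0.99 ± 0.21 (SE) with Nint, adjusted p 0.00469, and -1.39 ± 0.21 with Sora, adjusted p 3.8e-05.

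ENSRNOG00000004265 was the other gene that fell with Nint, and its edgeR log2 fold change was -2.44 ± 0.45 (SE), with 0.00124 as the adjusted p. Its TGFb libraries had 0.36, 0.72 and 1.60, all above the highest Nint library at -0.82. Counts of this gene were low, 3 to 14 with Nint and 26 to 81 with TGFb. Nint and Pirf libraries overlapped, since Pirf ran from -1.17 to -0.08. ENSRNOG00000038286 fell with Sora by -1.31 ± 0.33 (SE), edgeR adjusted p 0.00654, and lost that call in a fit of only the 12 libraries compared, with an adjusted p of 0.073.

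**Figure D5:**
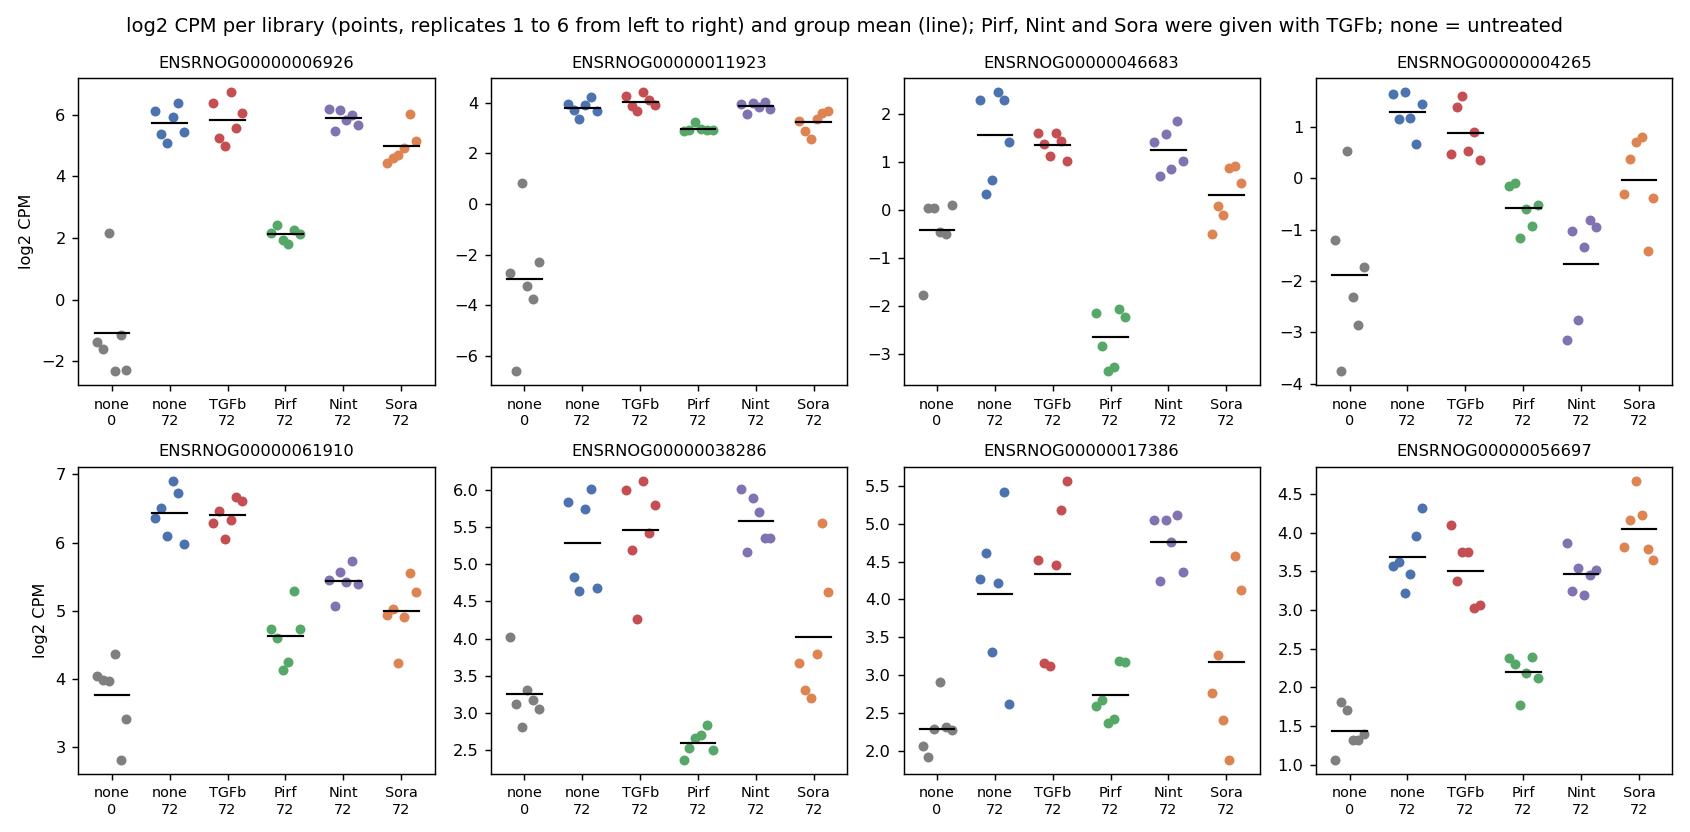
Log2 CPM in each library (y axis; points, replicates 1 to 6 from left to right) with the group mean (line) for the 8 genes given by identifier, in untreated slices at 0 and 72, TGFb, and TGFb with Pirf, Nint or Sora. The Pirf mean lies below the TGFb mean in each panel, and the order of Nint and Sora differs between panels.

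Within groups these genes were more variable than coding genes of the same level rule. The median SD of log2 CPM was 0.556 at time 0 against 0.21 for coding genes, 0.232 against 0.113 with Pirf, and 0.289 against 0.173 with Sora. The gap was smaller in the other groups: 0.199 against 0.156 in untreated slices at 72, 0.196 against 0.166 with TGFb, and 0.15 against 0.124 with Nint. Without replicate 3 the time 0 value was 0.307. The coding genes were not matched for level in each group, while the rule chose genes lower at time 0 and with Pirf. The part of level in these gaps was not tested.

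Some members rest on estimated rather than whole counts. In 50 of the 267 genes (18.7%) more than 50% of the deposited values were not whole numbers, to within 1e-06, against 10.7% of 13053 coding genes (RSEM gives such values where reads are shared between similar genes). Values of these genes are uncertain. All values were whole for 202 genes and for the 8 given by identifier.

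Membership also depends on the thresholds. Just inside the culture threshold lay 1.003 and 1.03 and just outside 0.97 and 0.95; for TGFb the sizes were 0.49 and 0.49 inside and 0.50 and 0.51 outside. For Pirf the nearest values were -1.0 and -1.002 inside and -0.997 and -0.994 outside. Leaving out single libraries of the 4 groups in the rule's differences, 190 of the 267 stayed members in all 24 forms. With medians in place of means 226 stayed.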

How the data were processed

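RNA of 36 samples was extracted with RNeasy 96 and sequenced as stranded, ribosome-depleted total RNA, per the labels' protocols. The authors deposited RSEM expected counts for 32883 genes and log2 CPM for 14984 coding genes. The deposited log2 CPM equals edgeR's with TMM factors and a prior of 0.25, to within 4.97e-14. RSEM, edgeR and Rnor_6.0 are named in the submitters' processing notes, with versions, aligner, annotation release and the use of strand not given in the sources used here.

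Samples were grouped by title; each column was matched by its description, and no column was left unused. Expected counts were rounded, filtered with filterByExpr (15644 genes kept, all 267 members among them), scaled by TMM and fitted for all 36 libraries together in edgeR 4.0.16 (glmQLFit, glmQLFTest; R 4.3.3), with Benjamini-Hochberg adjustment over all genes tested and calls at an adjusted p under 0.05. SE is the log2 fold change divided by the root of F. Contrasts used to choose the genes were not tested. Scripts were tested on simulated data. Tables were made in Python 3.11.15 with pandas 2.3.3.

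Alternatives were DESeq2 1.42.0, limma 3.58.1 on the deposited log2 CPM, other scaling, no filter, a replicate block, only the libraries compared, and each replicate left out. The rule without scaling, time 0 without replicate 3, and the sets over all 30 libraries at 72 were added after seeing the data. The members and lists were chosen with earlier results of these data known.

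Genes named were those with the largest culture difference, the largest Pirf difference, or the largest fold change among called members in each direction; with identifiers only, at most 2 were given for each. Gene lists, cell type markers and promoter motifs planned by symbol were not run, because the files do not pair identifiers with symbols.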

Additional observations from a re-analysis of the deposited data

Results flagged for a closer look

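Of 72 groups of 6 libraries examined, 6 had a library whose gap to its nearest neighbour took up more of the group's range than Dixon's 95% critical value allows, and chance gives about 1 in 20. At time 0, replicate 3 was high in the mean log2 CPM of the 267 genes (2.72), in the mean of the larger set (2.33) and in ENSRNOG00000006926 (2.16). Replicate 1 at time 0 was high in the share of counts (0.859%) and low in ENSRNOG00000046683 (-1.77). Replicate 3 with Pirf was high in ENSRNOG00000011923 (3.22).

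The effects of Sora and Nint, both against TGFb, differed by edgeR for 4 named genes, as log2 fold changes of Sora over Nint. The values were -1.33 for ENSRNOG00000017386, -1.32 for ENSRNOG00000038286, 1.61 for ENSRNOG00000004265 and 0.62 for ENSRNOG00000056697.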

How the results depend on the processing

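In each comparison more of the 267 genes were called lower than higher in 19 of 19 alternatives. The comparisons with TGFb alone favour this in advance, because the rule used those TGFb libraries and favours genes high in them. Sora against Nint used no libraries of the rule's differences. For Nint against TGFb the share called lower exceeded that of all genes in 0 of the 19. All genes leaned the same way there, with 345 lower and 138 higher in the main fit. For each Sora comparison the share called lower exceeded that of all genes in 19 of 19. Within the larger set, Sora against Nint turned: 1 lower, 3 higher and a median of 0.099 without scaling, 1, 2 and 0.002 with no filter, and 3, 4 and 0.061 without Sora replicate 5, with single replicates left out giving medians of -0.058 to 0.061. For Nint against TGFb the fit of the 12 libraries compared gave 5 lower and 1 higher. For Sora against TGFb 28 were lower with no filter and 24 to 64 as single replicates were left out, with 29 without TGFb replicate 1, 24 without TGFb replicate 4, 28 without Sora replicate 1 and 27 without Sora replicate 2. The higher count there was 3 without scaling, 1 with limma, 1 with DESeq2, and 0 to 1 with single replicates left out. For Sora against Nint 17 were lower with no filter and 12 to 57 with single replicates left out: 15, 19, 17 and 13 without Nint replicates 1, 3, 4 and 5, 14, 13, 13 and 12 without Sora replicates 1 to 4, and 57 without Sora replicate 5. The higher count was 4 without scaling and 0 to 4 with single replicates left out. Without scaling the median over all genes was 0.10 for Sora against TGFb and 0.12 for Sora against Nint. The cause of these shifts was not tested.

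The replicate numbers were not taken to pair libraries: 23 of 90 pairs with the same number correlated over 0.1 (from -0.341 to 0.63), and 14 of 90 correlated best with their own number. With a replicate block the lower and higher counts were 2 and 0 for Nint against TGFb, 47 and 0 for Sora against TGFb, and 38 and 3 for Sora against Nint. The rule gave 253 to 279 genes with single libraries left out, 258 with medians, 287 with edgeR fold changes (253 shared) and 199 without scaling (190 shared). No confidence intervals are given, and near a count of 0 depth limits the fold.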

Other observations

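A few of the 267 genes were spread between replicates in a pattern that did not follow the groups. In 4 genes, singled out after their values were seen, the same 7 of the 30 libraries at 72 were high: 2 of untreated slices, 2 with TGFb, 1 with Nint and 2 with Sora, and 0 with Pirf. The first had 8.87 to 9.14 log2 CPM in those libraries and 4.68 to 6.74 in the other 23, and 1.07 to 3.99 at time 0. The second had 6.60 to 6.80 against 1.54 to 3.18. In all 4 every deposited value was a non-whole estimate, and all 4 left the rule when medians replaced means. TGFb replicates 2 and 5 were the TGFb libraries among the 7. The rule asks for a low Pirf mean and similar untreated and TGFb means. The 0 with Pirf and the 2 and 2 without a drug therefore partly follow from it.

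One more gene owed its Pirf difference of -2.76 to 1 library: it lay at -3.63 in Pirf replicate 3 and at 2.63 to 6.71 in the other 29 libraries at 72, and with medians the difference was -1.12. In all, 10 of the 267 genes had an SD over 1 in at least 3 groups, and in 9 of these over 80% of values were not whole.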
